A study of Mus musculus with 4 samples.

Results

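Cells hold abundant structured RNAs that are neither messengers nor ribosomal RNAs, and 8 of them were followed here in mouse inner ear progenitor cells and in neurons derived from them. They are 7SK RNA (Rn7sk), the RNA subunits of RNase MRP (Rmrp) and RNase P (Rpph1), the Y RNAs Rny1 and Rny3, telomerase RNA (Terc) and the minor spliceosome RNAs U11 (Rnu11) and U12 (Rnu12). They were taken by gene symbol from the deposited count tables, and all 8 were found among the 49997 symbols listed. The cells are iMOPs, an immortalized line of multipotent otic progenitors of wild-type genotype. The 2 culture states were sequenced in 2 biological replicates each. Proliferating iMOPs were kept in DMEM/F12 with B27, carbenicillin and basic FGF at 20 ng/ml, and iMOP-derived neurons in Neurobasal with N21, L-glutamine and the kinase inhibitor K03861 at 1 µM. The proliferating cultures are called progenitors below. All 4 cultures come from this single line, and the titles of both second replicates carry the words set 2, whose meaning is not stated.

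As background, 7SK RNA holds the elongation kinase P-TEFb in an inactive complex in the nucleus. RNase P trims the 5′ ends of transfer RNA precursors, RNase MRP cuts the ribosomal RNA precursor, and both enzymes share most of their protein subunits. Y RNAs bind the Ro60 protein, telomerase RNA carries the template from which chromosome ends are extended, and U11 and U12 form a particle that recognises the rare minor class of introns. RNA polymerase III transcribes the 7SK, RNase MRP, RNase P and Y RNA genes, whereas RNA polymerase II transcribes the telomerase RNA, U11 and U12 genes.

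The tables held 7446361 to 14484011 counts per library, of which the 18S ribosomal RNA row Rn18s-rs5 took 53.3% to 76.1%. The 18S part was higher in both second replicates: 53.3% and 75.0% in progenitors (replicates 1 and 2) and 59.4% and 76.1% in neurons. This row was left out, so that 2595578 to 3850766 counts remained, and a share below is in CPM, with these counts as the total. Proliferating replicate 2 stood apart: log2 CPM over 12683 genes correlated with proliferating replicate 1 at r = 0.818, while proliferating replicate 1 and neuron replicate 1 correlated at 0.913 (a description, since genes are not replicates). The labelled cell states were only partly mirrored by their markers. Summed over 12 neuron markers, the share was 567 and 995 in progenitors (replicates 1 and 2) and 625 and 1035 in neurons. Over 9 progenitor and cell cycle markers it was 1625 and 1118 against 1710 and 838. Within that sum, the cell cycle genes were lowest of all 4 libraries in the library labelled proliferating replicate 2, against its label: Mki67 had shares of 326 and 31.2 in progenitors and 366 and 133 in neurons, and Top2a had 586 and 62.4 against 675 and 371. Ccnb1, Cdk1, Pcna and Mcm2 were lowest there too, whereas the progenitor genes Nes, Sox2 and Sox9 were highest there (Nes 264 and 589 against 290.3 and 102). The neuron markers did not move together. Tubb3 was highest there, at 67.1 and 551 against 88.8 and 296, as were Stmn2, Nefl, Nefm and Gap43 at 60 counts or fewer. Map2 (329 and 263 against 375 and 398), Dcx and Rbfox3 were lowest there. Elavl4 was higher in both neuron libraries, at 26.5 and 34.7 against 54.8 and 108. The edgeR values of the 8 RNAs are given with and without proliferating replicate 2, which keeps its labelled name below. The share over 9 glial markers was 580.2 and 343 against 226 and 72.5. Hair cell markers summed to 83.7 and 53.9 against 14.3 and 62.7. Blood and immune markers summed to at most 3.74 in any library, and those of mesenchyme and endothelium to at most 3.85. In bulk RNA, fewer cells of a type and less RNA per cell cannot be told apart, and the part of these markers in the results below was not tested.

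Together the 8 RNAs made up a similar part of each library. Proliferating replicate 1 gave 4.03% of its counts to them (95% Wilson interval 4.01% to 4.05%), and proliferating replicate 2 gave 4.84% (4.81% to 4.86%). Neuron replicate 1 gave 4.40% (4.38% to 4.42%), and neuron replicate 2 gave 3.91% (3.89% to 3.93%). The highest and the lowest value thus both came from second replicates, and the groups overlapped. Each interval was computed within a single library, so it covers counting error only. Reads without molecular identifiers are not independent molecules, so the intervals may be too narrow even for that. With 2 libraries a group, a two-sided exact permutation test of a single value cannot give a p below 0.33, so no such test was made.

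Levels can be compared between RNAs only per length, which was done with the deposited RPKM values rescaled to counts without the 18S row. In proliferating cells the order from high to low was Rny3 (59696 ± 1275 RPKM), Rnu11 (58906 ± 12297), Rpph1 (32203 ± 10797), Rmrp (31389 ± 5259), Rn7sk (22975 ± 6862), Rny1 (19780 ± 2188), Rnu12 (18600 ± 620) and Terc (593 ± 51.0; SD, n = 2 each). In neurons it was Rnu11 (69401 ± 4481 RPKM), Rny3 (47716 ± 2244), Rpph1 (27449 ± 6968), Rmrp (25370 ± 3664), Rny1 (22835 ± 1259), Rn7sk (21770 ± 3051), Rnu12 (20759 ± 335) and Terc (1123 ± 275). With the lengths behind these values, both large steps in this order exceeded the spread of replicates in both states. They are that from Rny3 or Rnu11 down to the RNase RNAs and that down to telomerase RNA. Rny3 and Rnu11 did not differ beyond their spread in proliferating cells, while Rnu11 lay above Rny3 in neurons by more than it. Here U11 counts as 108 bases, and with the GENCODE length of 134 bases its values would be lower. Its place beside Rny3 and its step down to the RNase RNAs in proliferating cells therefore depend on the length chosen. Rpph1 and Rmrp did not differ beyond their spread in either state, nor did Rn7sk and Rny1. Telomerase RNA was the single member outside the 100 most abundant rows, and the other 7 ranked between 8 and 60 in every library.

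**Figure D1:**
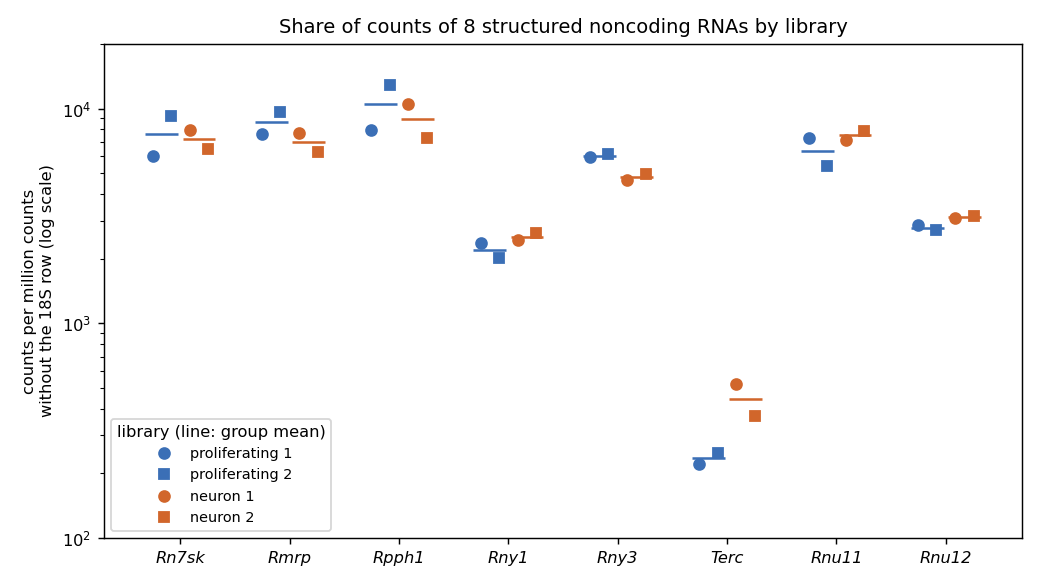
Share in CPM, with counts outside the 18S row as the total (log scale), for each of the 8 RNAs; points are the 4 libraries (circles replicate 1, squares replicate 2) and lines are group means. Both neuron libraries lie above both proliferating libraries for Terc, Rny1 and Rnu12 and below them for Rny3, and the groups overlap for the other 4.

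The long RNA polymerase III products, 7SK and the RNAs of RNase MRP and RNase P, showed no separation of the cell states. Rn7sk, which lies on chr9:78175302-78175633 (minus strand, GRCm38), had shares of 6017 and 9239 in progenitors (replicates 1 and 2) and of 7944 and 6511 in neurons. Rpph1, on chr14:50807447-50807771 (minus strand), had 7985 and 12947 in progenitors and 10522 and 7320 in neurons. Rmrp, on chr4:43492785-43493059 (minus strand), had 7609 and 9655 in progenitors and 7689 and 6264 in neurons. For all 3 RNAs proliferating replicate 2 was the highest library and neuron replicate 1 the second highest, so the groups overlapped.

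Within pair 1 (replicate 1 of both states; pair 2 is replicate 2) Rn7sk was 1.32-fold and Rpph1 1.32-fold higher in neurons, and Rmrp stood at 1.01-fold. Within pair 2 all 3 were lower in neurons, Rn7sk by 1.42-fold, Rmrp by 1.54-fold and Rpph1 by 1.77-fold. The edgeR log2 fold change, on libraries scaled by TMM, was -0.014 (SE 0.37) for Rn7sk, -0.23 (SE 0.33) for Rmrp and -0.17 (SE 0.39) for Rpph1, with an adjusted p of 0.9996 for each. These signs were not stable. All 3 turned without proliferating replicate 2, to 0.51 for Rn7sk, 0.12 for Rmrp and 0.40 for Rpph1. Those of Rn7sk and Rpph1 also turned without neuron replicate 2, to 0.065 for Rn7sk and 0.011 for Rpph1.

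The RNase P RNA has relatives in the mouse genome, Rprl2 and Rprl3, named as RNase P RNA-like genes. Rprl3 had 2767 and 3441 counts in progenitors and 4513 and 2604 in neurons. That was 9.97%, 10.2%, 11.1% and 10.3% of the Rpph1 count in the same order, a nearly fixed fraction while Rpph1 itself ranged 1.77-fold. Rprl2 had 69 to 102 counts, or 0.252% to 0.296% of Rpph1. How reads that match several loci were counted is not stated, so the split between Rpph1 and Rprl3 is uncertain. The ratio of Rmrp to Rpph1 counts, which no scaling of the libraries can alter, was 0.953 and 0.746 in progenitors and 0.731 and 0.856 in neurons, and the groups overlapped.

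The Y RNAs differed from each other in direction. Both genes lie on chromosome 6, Rny3 at chr6:47781624-47781724 (plus strand) and Rny1 at chr6:47788070-47788180 (minus strand). Their sequences, from the GENCODE M21 transcripts and cut to the RefSeq span on GRCm38, are shown because the 2 RNAs were counted separately although 80 of 111 aligned positions (72.1%) are identical. Capitals mark the 3 identical runs of at least 8 bases, of which the longest has 12.
Rny1: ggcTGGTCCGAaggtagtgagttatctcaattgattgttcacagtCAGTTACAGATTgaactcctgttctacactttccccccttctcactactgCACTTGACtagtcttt
Rny3: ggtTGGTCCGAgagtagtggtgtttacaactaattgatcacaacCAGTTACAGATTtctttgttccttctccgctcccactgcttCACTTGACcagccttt

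Rny1 had shares of 2367 and 2024 in progenitors (replicates 1 and 2) and of 2436 and 2634 in neurons. Both neuron libraries were thus higher, by 1.03-fold in pair 1 and by 1.30-fold in pair 2. Rny3 had shares of 5938 and 6120 in progenitors and of 4659 and 4980 in neurons. Here both neuron libraries were lower, by 1.27-fold and 1.23-fold in the pairs. The edgeR log2 fold change was 0.32 (SE 0.33) for Rny1 and -0.23 (SE 0.31) for Rny3, with an adjusted p of 0.9996 for each. With TMM scaling the groups no longer separated for Rny3, since neuron replicate 2 (5388 CPM) lay above proliferating replicate 1 (5243 CPM). Without proliferating replicate 2 the log2 fold change was 0.35 for Rny1 and -0.045 for Rny3.

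The ratio of Rny1 to Rny3 counts does not depend on any scaling. In progenitors it was 0.399 (95% Wilson interval 0.389 to 0.409) for replicate 1 and 0.331 (0.321 to 0.341) for replicate 2. In neurons it was 0.523 (0.510 to 0.536) in replicate 1 and 0.529 (0.516 to 0.542) in replicate 2. The group means were 0.365 ± 0.0481 and 0.526 ± 0.00427 (SD, n = 2 each), a 1.45-fold difference that was 1.31-fold in pair 1 and 1.60-fold in pair 2. The difference exceeded the spread between replicates, and the ratio itself was not tested in a model. Without proliferating replicate 2 the log2 difference was 0.40, beside 0.53 over all 4 libraries. This was 1 of 5 ratios between members that were computed. The groups overlapped for Rmrp to Rpph1 and for Rnu11 to Rnu12, and did not overlap for the 2 ratios with Terc given with that RNA. Those 2 share the Terc counts. With 2 libraries a group, a ratio can separate the groups by chance alone. How often ratios of other genes do so was not computed, so the separation is a description only.

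**Figure D2:**
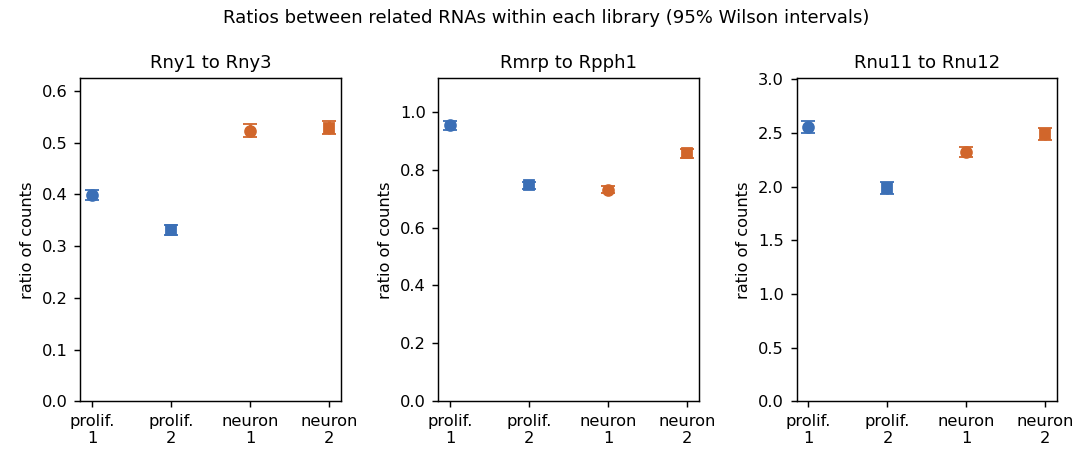
Ratio of the counts of 2 related RNAs in each library, with 95% Wilson intervals that cover counting error only; blue is proliferating, orange is neuron. The Rny1 to Rny3 ratio is 0.331 to 0.399 in proliferating libraries and 0.523 to 0.529 in neuron libraries, while the Rmrp to Rpph1 and Rnu11 to Rnu12 ratios overlap between the groups.

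Telomerase RNA had the largest difference of the 8 and was higher in both neuron libraries. Terc lies on chr3:96414437-96414833 (minus strand). The first 200 of its 397 bases are printed because the template, the part copied into telomeric repeats, sits at the very start of the mouse RNA; capitals mark CCTAACCC, found at position 2 and searched on the RNA strand alone. The same letters occur in 7 of 3529 short noncoding transcripts of GENCODE M21 (0.198%).
Terc: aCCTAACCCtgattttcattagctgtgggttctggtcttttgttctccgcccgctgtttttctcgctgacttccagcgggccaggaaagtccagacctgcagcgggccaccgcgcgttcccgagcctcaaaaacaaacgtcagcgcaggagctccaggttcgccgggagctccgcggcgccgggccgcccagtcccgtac

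Terc had 768 and 648 counts in progenitors (replicates 1 and 2) and 2013 and 1276 in neurons. As shares these were 221 and 250 in proliferating cells and 523 and 369 in neurons. The lowest neuron library was thus above the highest proliferating one, and the neuron libraries differed from each other by 1.42-fold. The difference was 2.37-fold in pair 1 and 1.48-fold in pair 2. In the edgeR fit the log2 fold change was 1.002 (SE 0.43), with an unadjusted p of 0.0535 and an adjusted p of 0.9996, so Terc did not pass the test. Leaving out single libraries gave log2 fold changes between 0.72 and 1.26, the highest without proliferating replicate 2. The ratio of Terc to Rn7sk counts was 0.0367 and 0.0270 in progenitors and 0.0658 and 0.0566 in neurons. That of Terc to Rmrp counts was 0.0290 and 0.0259 against 0.0680 and 0.0588. Both ratios were higher in each neuron library than in either proliferating one. They were not among the planned ratios and reuse the Terc counts given above, so they are no separate support for a difference in Terc. Of the 12683 genes tested, 5.16% had a log2 fold change at least as high as that of Terc.

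The messenger RNA of the enzyme's catalytic protein was not detected at this depth. Tert, which encodes the telomerase reverse transcriptase, had 0 counts in all 4 libraries, which allows shares of up to 0.779 to 1.16 CPM (3 counts of each total). Dkc1, the dyskerin gene whose protein binds telomerase RNA, had 249 and 83 counts in progenitors and 257 and 132 in neurons, a log2 fold change of 0.15 (SE 0.53).

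Of the minor spliceosome RNAs, U12 varied least over the 4 libraries among the 8 members by plain shares. The sequences are shown because the annotations differ in where U11 begins. In Rnu11, from the GENCODE M21 model at chr4:132270080-132270213 (minus strand), capitals mark the 27 bases at the 5′ end that lie outside the RefSeq span on GRCm38. In Rnu12, at chr15:83149645-83149794 (plus strand), capitals mark GTAAGGA at position 17, the stretch known to pair with the branch site of minor introns, searched on the RNA strand and present in 27 of 3529 short noncoding transcripts (0.765%).
Rnu11: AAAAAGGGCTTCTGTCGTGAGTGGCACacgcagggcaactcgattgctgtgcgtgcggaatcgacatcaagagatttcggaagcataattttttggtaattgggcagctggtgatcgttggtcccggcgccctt
Rnu12: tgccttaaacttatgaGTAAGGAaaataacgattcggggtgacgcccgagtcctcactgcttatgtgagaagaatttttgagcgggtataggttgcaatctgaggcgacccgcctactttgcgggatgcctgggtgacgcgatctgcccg

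Rnu12 had shares of 2856 and 2724 in progenitors (replicates 1 and 2) and of 3078 and 3149 in neurons. Both neuron libraries were higher, by 1.08-fold and 1.16-fold in the pairs. By plain shares its highest library exceeded its lowest by 1.16-fold. A range as small or smaller was found in 3.56% of the 730 genes whose mean count reached 500, whose median range was 1.77-fold. With TMM scaling the range of Rnu12 was wider, at 2521 and 2918 CPM in progenitors and 3106 and 3408 CPM in neurons. It was then close to that of Rny1 (2090 to 2850 CPM), and no share over other genes was computed on this scale. Rnu11 had shares of 7301 and 5423 in progenitors and of 7153 and 7838 in neurons, so that proliferating replicate 2 alone was low and the groups overlapped. With TMM scaling they separated, at 6446 and 5808 CPM against 7217 and 8480. The edgeR log2 fold change was 0.36 (SE 0.30) for Rnu11 and 0.26 (SE 0.33) for Rnu12, with an adjusted p of 0.9996 for both. Without proliferating replicate 2 these were 0.29 and 0.38.

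U11 and U12 act in a single particle, yet the count ratio of Rnu11 to Rnu12 was 2.56 and 1.99 in progenitors and 2.32 and 2.49 in neurons. Per length it was 2.76 to 3.55 with the lengths behind the deposited RPKM values, where U11 counts as 108 bases. With the GENCODE length of 134 bases it was 2.23 to 2.86. The groups overlapped on each scale.

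None of the 8 RNAs passed the edgeR test between the cell states. An adjusted p under 0.05 was reached by 0 of 8, and by 0 of all 12683 genes tested (0.0%). An unadjusted p under 0.05 was reached by 0 of 8 and by 448 of all genes (3.53%): 1.0% higher and 2.53% lower in neurons. DESeq2 called 11 genes higher and 43 lower, and none of the 8 RNAs was among them. The log2 fold changes were above 0 for 4 RNAs and below 0 for 4, with a median of 0.12 beside 0.025 for all genes tested. Without proliferating replicate 1 the median of the 8 was -0.18, and without proliferating replicate 2 it was 0.37. In 7 of 8 the change was smaller in size than the median over all genes, 0.38. That median takes in genes of far fewer counts, and none was computed over genes of like abundance. By plain shares the groups did not overlap for 3 RNAs that were higher in neurons, beside 8.04% of all genes, and for 1 that was lower, beside 21.7%. With TMM scaling the groups did not overlap for 4 that were higher and 0 that were lower, beside 13.1% and 14.9% of all genes. Terc, Rny1 and Rnu12 were higher without overlap on both scales, though for Rny1 by plain shares the counting intervals of pair 1 overlapped.

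**Figure D3:**
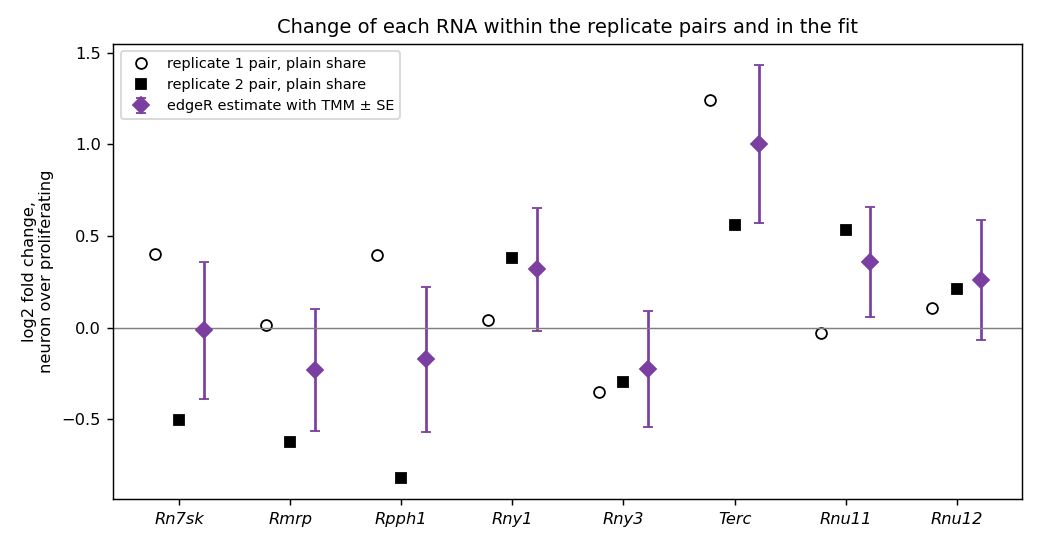
Log2 fold change, neuron over proliferating, of each RNA within pair 1 (open circles) and pair 2 (filled squares) by plain share, and the edgeR estimate with TMM scaling (diamonds, ± SE). Rn7sk, Rpph1, Rmrp and Rnu11 lie on opposite sides of 0 in the pairs, Rmrp and Rnu11 with pair 1 near 0. Terc, Rny1 and Rnu12 lie above 0 and Rny3 below 0 in both pairs.

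The protein partners of these RNAs were described from lists chosen by their known roles. For comparison with the lists here and below, 6607 of all 12683 genes tested were higher in neurons and 6076 lower. Of the 9 genes of the 7SK particle and P-TEFb, all were tested, with 4 higher, 5 lower and a median log2 fold change of -0.091. Aff4, a scaffold of the super elongation complex that recruits P-TEFb, had the highest value, 0.92 (SE 0.52). Its counts were 930 and 250 in progenitors and 1169 and 1074 in neurons, so that proliferating replicate 2 alone was low, and its pair values on TMM-scaled CPM were 0.37 and 1.69. Cdk9, the kinase of P-TEFb, had the lowest value, -0.49 (SE 0.55), with 86 and 117 counts against 89 and 85. Its pair values, 0.093 and -0.85, differed in sign. Of 11 RNase P and MRP protein genes 8 were tested, with 3 higher, 5 lower and a median of -0.22. They spanned -0.96 (SE 0.73) for Pop7 and 0.52 (SE 0.65) for Rpp38, both subunits of the enzymes. Pop7 had 20 and 44 counts in progenitors and 22 and 19 in neurons, and Rpp38 had 25 and 11 against 21 and 33. Pop1, the largest protein subunit and the gene of the list with the most counts, had 127 and 105 against 211 and 87, a log2 fold change of 0.13 (SE 0.54). All 3 differed in sign between the pairs on TMM-scaled CPM, at 0.17 and -1.53 for Pop7, -0.19 and 1.03 for Rpp38, and 0.77 and -0.67 for Pop1. The list's median was 0.18 in pair 1 but -0.46 in pair 2. Of 8 telomerase protein genes 7 were tested, with 4 higher, 3 lower and a median of 0.091. They ranged from -0.36 (SE 0.49) for Nop10, which encodes a protein of the dyskerin complex, to 0.22 (SE 0.57) for Wrap53, whose protein brings telomerase RNA to Cajal bodies. The signs of these medians are not stable: with each library left out in turn the 7SK list stood between 0.067 and 0.21 and the telomerase list between -0.29 and -0.022, and without proliferating replicate 2 the RNase list stood at 0.27. Across these 3 lists 0 genes had an unadjusted edgeR p under 0.05.

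The Y RNA partners Ro60 and Ssb, which encode the Ro60 and La proteins, depended on a single library. Ro60 had 320 and 41 counts in progenitors (replicates 1 and 2) and 367 and 240 in neurons, and Ssb had 313 and 72 against 376 and 177. Proliferating replicate 2 was thus the low library for both. Their log2 fold changes were 0.79 (SE 0.72) and 0.49 (SE 0.61), with a median of 0.64 that came to 0.023 when proliferating replicate 2 was left out and 1.78 when proliferating replicate 1 was.

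Among the minor spliceosome proteins 8 of 11 tested genes were higher in neurons and 3 lower, beside 6607 and 6076 of all 12683 genes. The list had a median log2 fold change of 0.44. In this list 2 genes had an unadjusted edgeR p under 0.05, both higher in neurons, beside 1.0% of all genes in that direction. Scnm1, a splicing factor of minor introns, had 65 and 42 counts in progenitors and 134 and 160 in neurons. Its log2 fold change was 1.33 (SE 0.48, unadjusted p 0.0284, adjusted p 0.9996). Snrnp35, a protein of the U11/U12 particle, had 19 and 12 counts against 54 and 34, a log2 fold change of 1.34 (SE 0.56, unadjusted p 0.0492, adjusted p 0.9996). Rnpc3, which encodes the protein that bridges U11 and U12, had 188 and 42 counts against 211 and 132, a value of 0.56 (SE 0.60). Proliferating replicate 2 was the low library for Rnpc3. Zcrb1, which encodes another protein of the U11/U12 particle, had the lowest value of the list, -0.53 (SE 0.47). Its shares were 27.9 and 29.3 in progenitors and 20.3 and 16.8 in neurons. Both neuron libraries were thus lower without overlap, as for 21.7% of all genes by plain shares. The list's median differed little between pairs, at 0.33 and 0.34. Leaving out proliferating replicate 2 gave 0.10, and leaving out neuron replicate 1 gave 0.042.

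The transcription machinery of these RNAs showed no common direction. Of 20 genes of RNA polymerase III and its promoter factors, 9 were higher and 11 lower, with a median of -0.12. Polr3gl, which encodes 1 of the 2 alternative forms of a polymerase III subunit, had 39 and 33 counts in progenitors and 83 and 84 in neurons, a log2 fold change of 1.03 (SE 0.49, adjusted p 0.9996). Snapc4, a subunit of the complex that binds small nuclear RNA promoters, had 91 and 77 counts against 48 and 53, a value of -0.91 (SE 0.49, adjusted p 0.9996). As shares these were 11.2 and 12.7 against 21.6 and 24.3 for Polr3gl and 26.2 and 29.7 against 12.5 and 15.3 for Snapc4, and the groups overlapped for neither. These are the extremes of 20 genes, and by plain shares 8.04% of all genes were higher and 21.7% lower in neurons without overlap. Bdp1, a subunit of the initiation factor TFIIIB and the gene of the list with the most counts, had 516 and 70 counts against 566 and 234, a log2 fold change of 0.46 (SE 0.74). Of 18 genes of small nuclear RNA transcription and 3′ end processing, mostly subunits of the Integrator complex, 11 were higher and 7 lower, with a median of 0.13 that was -0.012 with library size alone as the scaling. Its values ranged from -1.04 (SE 0.72) for Zc3h8, at 21 and 14 counts against 12 and 7, to 0.59 (SE 0.52) for Ints10. Ints1, the Integrator subunit with the most counts, had 391 and 339 counts against 273 and 366, a log2 fold change of -0.36 (SE 0.48).

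**Figure D4:**
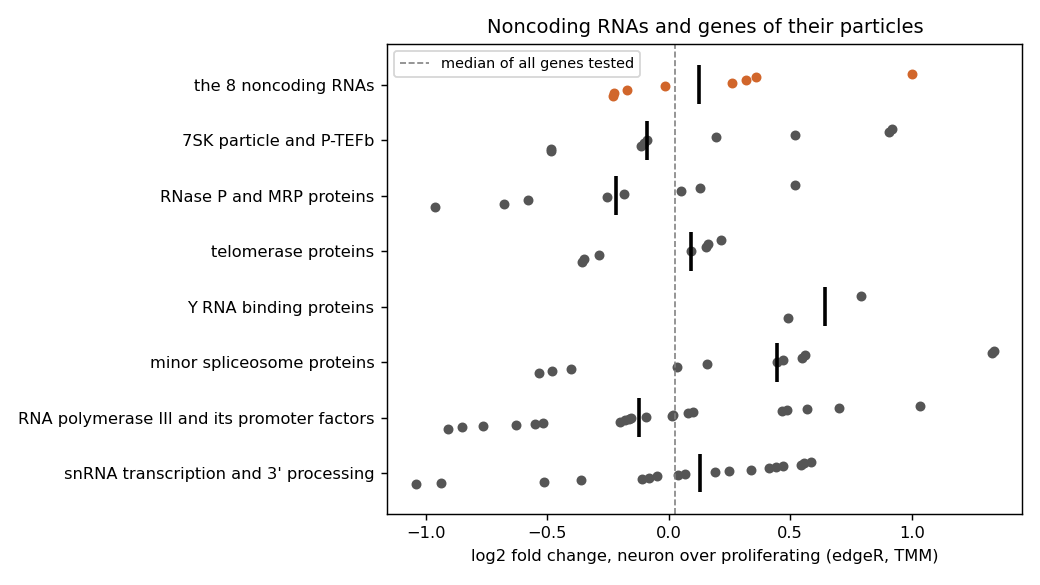
Log2 fold change, neuron over proliferating, from the edgeR fit for the 8 RNAs (orange) and for each tested gene of the partner lists (grey); bars are list medians and the dashed line is the median of all genes tested, 0.025. The list medians lie between -0.22 and 0.64, and the minor spliceosome proteins include 2 genes above 1.3.

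Other structured RNAs in the tables included Rnu3a, the U3 small nucleolar RNA, with 152571 and 125706 counts in progenitors and 203597 and 121582 in neurons. On TMM-scaled CPM its log2 change was 0.46 in pair 1 and -0.45 in pair 2. Rnu7, the U7 RNA of histone messenger 3′ end processing, had the highest log2 fold change of 12 tested RNAs of this kind, 0.75 (SE 0.45). Vaultrc5, a vault particle RNA, had the lowest, -0.61 (SE 0.42). The 7SL RNA genes Rn7s1 and Rn7s2, of the signal recognition particle, had 1304 to 6045 and 700 to 2363 counts.

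No other listed gene overlapped any of the 8 in the RefSeq table. The closest neighbours were Parp2, 125 bases from Rpph1, with 27 to 71 counts, Poldip3, 266 bases from Rnu12, with 222 to 369 counts, Ccdc107, 280 bases from Rmrp, with 8 to 19 counts, and C920006O11Rik, 280 bases from Rn7sk, with 0 to 6 counts. The nearest genes on the other 12 sides lay at least 1695 bases away. These counts are small beside those of the RNAs. Annotated copies with at least 90% identity over at least 80% of the length held 2 or 3 counts for Rnu11 and 5 to 45 for Rnu12. The genes whose profile over the 4 libraries was most like the summed share of the 8 RNAs were Srgap2, Zfp12 and Anks1, with a root mean square difference of centred log2 shares of 0.00489, 0.0132 and 0.0181 among 7283 genes. With 4 libraries and a nearly flat profile this likeness is a description only.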

How the data were processed

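RNA sequencing libraries of total RNA depleted of ribosomal RNA came from 2 proliferating and 2 neuron cultures, grouped by sample title. Per the labels' protocols, the Takara SMARTer Stranded kit was used; how well it captures RNAs as short as the Y RNAs was not tested here. The authors deposited raw counts per gene symbol and RPKM values, 1 file of each per library. Per the submitters' processing notes, HISAT2, SAMtools, featureCounts, DESeq2 and deepTools 3.4.3 were used with the build mm10. The strand setting, the annotation and the treatment of reads with several matches are not given in the sources used here. Each deposited RPKM equals the count over the library total and 1 length per gene, which for the 8 RNAs is the RefSeq length on GRCm38.p6. This was checked within 0.1% for 25859 genes. The members and gene lists were chosen with earlier results of these data known.

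The row Rn18s-rs5 was left out. Groups were compared on counts with edgeR 4.0.16, run in R 4.3.3 (TMM, filterByExpr with minimum count 10 and total 15, glmQLFit and glmQLFTest, group as the only term, Benjamini-Hochberg adjustment over 12683 genes, two-sided, threshold 0.05). A trial on simulated data used larger changes than those of the 8 RNAs, so it does not measure power for them. The SE is the size of the log2 fold change over the square root of F. Changes within a pair are of plain shares for the 8 RNAs, and of TMM-scaled log2 CPM with a prior count of 2 for other genes. Nothing says that replicates came from separate thaws of the line, so p-values measure the spread between these cultures. Both replicate 2 titles carry the words set 2, so the numbers were taken to mark a shared set; deviations of same-numbered libraries correlated at r = 0.312 across genes. Named beside the 8 RNAs are, of each partner list and of the other structured RNAs, the genes with the most counts and the highest and lowest change and those with an unadjusted p under 0.05, the closest neighbours and 3 genes of like profile. Marker lists are given as sums; the marker genes named beside them, Tert, Rprl2, Rprl3, Rn7s1 and Rn7s2 were chosen after their values were seen. Sequences are from GENCODE M21, aligned with Biopython 1.88 and searched with BLAST 2.17.0. Alternatives were RLE factors, library size alone, the 18S row kept, DESeq2 1.42.0, no filter, limma 3.58.1 on log2(RPKM + 1) and log2(RPKM + 0.1), a replicate block and leaving out each library. The limma alternatives used the deposited RPKM values without rescaling, so their library totals include the 18S counts.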

Additional observations from a re-analysis of the deposited data

How the results depend on the processing

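Of 96 combinations of a member and an alternative, 89 kept the direction of the log2 fold change and 7 turned it, and the adjusted p was 0.261 or higher in all of them. The turned values were those of Rn7sk without a gene filter (0.022), with the replicate block (0.052), without proliferating replicate 2 (0.51) and without neuron replicate 2 (0.065), of Rmrp without proliferating replicate 2 (0.12), and of Rpph1 without proliferating replicate 2 (0.40) and without neuron replicate 2 (0.011). Terc, Rny1, Rny3, Rnu11 and Rnu12 kept theirs under all 12. For settings that moved a value the cause was not tested.

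Called genes numbered 0 in each direction. They were 41 higher and 121 lower without a gene filter, 11 higher and 43 lower with DESeq2, 3 lower with the replicate block (Egr1, Gfap and Slc6a11), 1 lower with log2(RPKM + 1) (Egr1) and 2 lower with log2(RPKM + 0.1) (Egr1 and Slc6a11). The median over all genes moved by -0.11 with library size alone and by -0.18 with log2(RPKM + 0.1). The minor spliceosome median was 0.45 with RLE factors, 0.32 with library size alone, 0.46 without a filter, 0.019 with log2(RPKM + 1) and 0.095 with log2(RPKM + 0.1). For the polymerase III list it was -0.23 with library size alone and -0.28 with log2(RPKM + 0.1). For the small nuclear RNA processing list it was -0.012 with library size alone, 0.23 with the replicate block, and -0.043 and -0.041 with the RPKM scales. The block changed no other call or direction of the 8 RNAs.

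With single libraries left out, a lone library is assumed to vary like the others. Log2 fold changes then ranged from -0.47 to 0.51 for Rn7sk, -0.58 to 0.12 for Rmrp and -0.65 to 0.40 for Rpph1. The median of the 8 ranged from -0.18 to 0.37. List medians ranged from 0.067 to 0.21 (7SK particle), -0.32 to 0.27 (RNase P and MRP), -0.29 to -0.022 (telomerase), 0.023 to 1.78 (Y RNA partners), 0.042 to 0.75 (minor spliceosome), -0.20 to -0.0497 (polymerase III) and -0.044 to 0.21 (small nuclear RNA processing). The log2 difference of the Rny1 to Rny3 ratio, 0.53, ranged from 0.40 to 0.67. The summed share on the TMM scale was an alternative chosen after seeing the data. Counting error is small for these RNAs, and the number of libraries limits precision.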
